A study of Mus musculus with 4 samples.

Results

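The interleukin 1 family and its receptors were followed in the mRNA of lung MDSCs, the myeloid-derived suppressor cells, through 10 genes chosen by name: Il1a, Il1b, Il1rn, Il36g, Il18 and Il33 for the ligands and the antagonist, and Il1r1, Il1r2, Il1rap and Il18rap for the receptor chains. Of the 54532 genes in the count table, 9 carried these symbols and Il36g was found under its older symbol Il1f9. All 10 passed the minimum of 10 counts in at least 1 library. CD11b+Ly6g+ cells were sorted from the lungs of C57BL/6 mice, 6 to 8 weeks old, in a model of the pre-metastatic niche (PMN), the lung as it is altered before tumour cells settle there. All groups, control included, received 300 μL of MCM, medium conditioned by B16F10 mouse melanoma cells, into the peritoneum on each of 10 days, and B16F10 cells into the tail vein on day 7. The control mice had no peptide, and the other groups were given TP5, sFD17 or FR17 under the skin at 40 μM/kg/day from day 3, with lungs taken on day 10. TP5 is thymopentin, FR17 is a peptide that assembles after cleavage by MMP2 and carries TP5, and sFD17 is its scrambled control, which assembles without the activity of TP5. For each group, sorted cells of 10 to 12 mice were pooled into 1 library, so the data hold no replicate check, no p-value was computed, and every interval covers counting error only.

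Interleukin 1α and interleukin 1β, the products of Il1a and Il1b, bind the receptor Il1r1, which then takes up the accessory chain Il1rap and signals through Myd88 to NF-κB. The antagonist Il1rn occupies Il1r1 without signalling, and Il1r2 is a decoy receptor that binds ligand but has no signalling domain. Interleukin 18 acts through Il18r1 with its accessory chain Il18rap, interleukin 33 through Il1rl1 and interleukin 36γ, the product of Il36g, through Il1rl2, the latter receptors again with Il1rap. Neutrophils are a known source of Il1b and of the decoy Il1r2. Interleukin 1β and interleukin 18 are made as precursors and cut by caspase 1 in an inflammasome, so a transcript level says nothing of the active cytokine.

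The libraries held 15543071 to 19638228 counts. The sort markers were present in all of them, Ly6g with 1234 to 2081 counts and Itgam, which encodes CD11b, with 5711 to 6924. Markers of other cells were present as well: summed counts of 16 macrophage and monocyte markers made up 1.08% of the control library, 0.881% of TP5, 0.424% of sFD17 and 1.57% of FR17, and 15 T and NK cell markers between 0.00571% and 0.0226%. Levels are given as CPM, the usual depth-scaled count, after TMM scaling, which corrects the library totals for differences in composition. A difference was called when it reached 2-fold, a log2 fold change of 1 in either direction on the log2 CPM scale.

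Members of the family were among the most abundant transcripts of these cells. Together they took 1.35% of the control library's counts, 1.12% of TP5, 1.57% of sFD17 and 0.958% of FR17. Il1b alone ranked 2 among all genes by counts in the control, TP5 and sFD17 libraries and 4 in FR17. Per kilobase of gene length, the order of levels in the control library ran from Il1b at 4860 CPM per kb through Il1r2 at 1290, Il36g at 249, Il1rn at 146, Il1a at 75.6 and Il18rap at 39.3 to Il1rap at 24.3 and Il18 at 22.3. Far below these stood Il1r1, the signalling receptor, at 0.847 CPM per kb, and Il33 at 0.349. Il1rap and Il18 did not differ beyond their counting intervals in the control and TP5 libraries, and neither did Il1r1 and Il33 in sFD17. The order was the same in the control, TP5 and sFD17 libraries. In FR17 Il18, at 30.6 CPM per kb, stood above Il18rap at 20.6 and Il1rap at 9.10. Gene length here counts the bases of all annotated exons, 1031 for Il18, 6752 for Il18rap and 11360 for Il1rap. The counting intervals do not cover this choice of length. By counts FR17 held 725 of Il18, 3193 of Il18rap and 2374 of Il1rap.

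**Figure D1:**
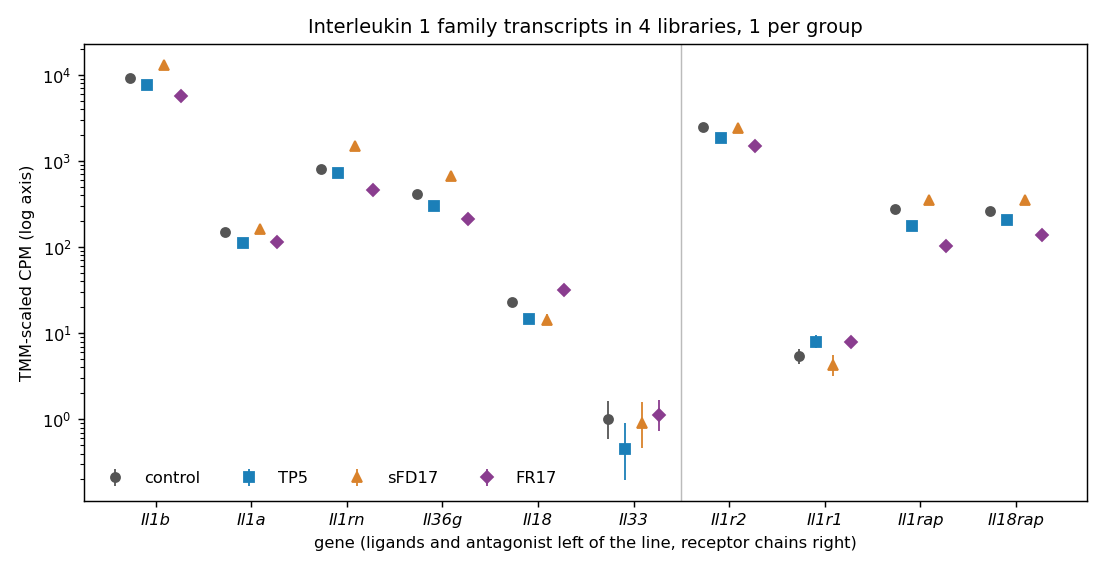
Level of each of the 10 genes (x axis) in CPM after TMM scaling (y axis, log scale) in the control, TP5, sFD17 and FR17 libraries, 1 point per library with its 95% Poisson counting interval. Il1b lies highest in every library, between 5630 CPM in FR17 and 13000 CPM in sFD17, and Il33 lowest, at 0.456 to 1.13 CPM.

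Among the ligands, Il1b (ENSMUSG00000027398, GRCm38 chr2:129364570-129371139, minus strand) had 156498 counts in the control library, 129241 in FR17, 171491 in sFD17 and 133841 in TP5. After scaling this was 9260 CPM in the control, 5630 in FR17, 13000 in sFD17 and 7630 in TP5, so that sFD17 was the highest and FR17 the lowest. Il1a (ENSMUSG00000027399, chr2:129299610-129309972, minus strand), whose product is active without caspase 1, had 149 CPM in the control, 116 in FR17, 160 in sFD17 and 110 in TP5. Its range over the 4 libraries was 0.54 on the log2 scale, the smallest among the 10 genes. Both genes lie in the same region of chromosome 2. Fewer cells of a type and less RNA per cell cannot be told apart in these pooled samples.

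The antagonist Il1rn (ENSMUSG00000026981, chr2:24336853-24351494, plus strand) had 807 CPM in the control, 464 in FR17, 1490 in sFD17 and 725 in TP5. Il36g (ENSMUSG00000044103, chr2:24186476-24193568, plus strand) had 410 CPM in the control, 209 in FR17, 661 in sFD17 and 302 in TP5. Both genes lie in the same cluster on chromosome 2 and both were highest in sFD17 and lowest in FR17, as Il1b was. The other ligands of this cluster were nearly silent: Il36a, listed as Il1f6, had 1, 2, 11 and 2 counts in the control, TP5, sFD17 and FR17 libraries, Il36b, listed as Il1f8, had at most 3, and Il1f5 and Il1f10 had none in any library. A count of 0 allows a level of up to 0.131 CPM in FR17 and up to 0.227 CPM in sFD17.

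Il18 (ENSMUSG00000039217, chr9:50554827-50581840, plus strand) showed another order. It had 388 counts in the control, 725 in FR17, 190 in sFD17 and 259 in TP5, which is 23.0 CPM in the control, 31.6 in FR17, 14.4 in sFD17 and 14.8 in TP5. FR17 was the highest library for Il18, and TP5 and sFD17 did not differ beyond counting error. Il33 (ENSMUSG00000024810, chr19:29925114-29960718, plus strand), an alarmin of epithelial and stromal cells, had only 17 counts in the control, 26 in FR17, 12 in sFD17 and 8 in TP5.

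Among the receptor chains, the decoy Il1r2 (ENSMUSG00000026073, chr1:40074079-40125231, plus strand) had 2460 CPM in the control, 1490 in FR17, 2430 in sFD17 and 1830 in TP5. The control and sFD17 libraries were nearly level, and FR17 was the lowest. The signalling receptor Il1r1 (ENSMUSG00000026072, chr1:40225080-40317257, plus strand) had 91 counts in the control, 179 in FR17, 56 in sFD17 and 140 in TP5, or 5.39, 7.80, 4.24 and 7.98 CPM in that order. The accessory chain Il1rap (ENSMUSG00000022514, chr16:26581704-26730117, plus strand) had 276 CPM in the control, 103 in FR17, 353 in sFD17 and 176 in TP5. Its spread of 1.77 on the log2 scale was the widest among the 10 genes, and the counts do not separate its membrane and soluble forms. Il18rap (ENSMUSG00000026068, chr1:40515362-40551705, plus strand), the accessory chain of the interleukin 18 receptor, had 265 CPM in the control, 139 in FR17, 353 in sFD17 and 205 in TP5. Il1r2, Il1r1 and Il18rap stand with Il1rl2, Il1rl1 and Il18r1 in a single receptor cluster on chromosome 1. Il1r1 was nonetheless lowest in sFD17, where Il18rap was highest. For Il1r1, sFD17 and the control did not differ beyond counting error, with a log2 fold change of -0.34 (-0.85 to 0.15). Exons of 3 of the 10 genes overlap a gene on the opposite strand, by 222 bases for Il1a, 25 for Il1b and 552 of 11360 for Il1rap, and the strand setting of the counting is not given in the sources used here. The overlapping genes had few counts beside them, 118 to 136 for Gm14023 at Il1a, 519 to 809 for Il1bos at Il1b and 6 to 34 for Gm20319 at Il1rap.

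Each peptide library was first set against the control library, which the 3 comparisons share. With TP5, the free peptide, 9 of the 10 genes had a log2 fold change below 0 and Il1r1 alone lay above, but none reached 2-fold. The median over the 10 genes was -0.43 on the log2 scale, against 0.00 over all 16369 genes tested. Apart from Il33, the largest differences were those of Il1rap, at -0.65 (95% counting interval of the log2 ratio -0.72 to -0.58), and Il18, at -0.63 (-0.87 to -0.41). Il1b was lower by a log2 fold change of -0.28 (-0.29 to -0.27) and Il1rn by -0.15 (-0.19 to -0.12). Il1r1 was at 0.56 (0.18 to 0.96). Il33, at -0.98 (-2.56 to 0.15), was not distinguishable from the control at this depth. Over all genes, 3.20% were called higher and 4.99% lower in TP5, beside 0 of 10 members in either direction.

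With sFD17, the scrambled peptide, the genes divided. Il1rn was at 0.89 (0.85 to 0.92), Il36g at 0.69 (0.64 to 0.73), Il1b at 0.49 (0.48 to 0.50), Il18rap at 0.41 (0.35 to 0.47) and Il1rap at 0.36 (0.30 to 0.41), all above the control. Il18, at -0.67 (-0.93 to -0.42), was below it. Il1a at 0.10 and Il1r2 at -0.01 lay close to the control, and both values changed sign with another scaling. Il1a was at -0.12 by library size alone, and Il1r2 was at 0.03 with the size factors of DESeq2 and at -0.23 by library size alone. Il1r1 at -0.34 (-0.85 to 0.15) and Il33 at -0.13 (-1.34 to 1.01) were not distinguishable from the control at this depth. The median was 0.23, against -0.03 over all genes. By library size alone it came to 0.01, with 5 members above and 5 below the control. Relative to the median over all genes it was 0.24 by library size alone and 0.25 with TMM factors. In either direction 0 of 10 members were called, where 5.32% of all genes were called higher and 6.47% lower. The value of Il1rn exceeded that of 93.3% of the genes tested.

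With FR17, the assembling peptide that carries TP5, 7 of the 10 genes were below the control. Il1rap was the only gene past 2-fold, with 4661 counts in the control and 2374 in FR17, a log2 fold change of -1.41 (-1.49 to -1.34) and thus 2.67-fold lower. Il36g at -0.98 (-1.03 to -0.92) and Il18rap at -0.93 (-1.0 to -0.86) fell just short of the threshold. Il1rn was at -0.80 (-0.84 to -0.76), Il1b at -0.72 (-0.73 to -0.71), Il1r2 at -0.72 (-0.74 to -0.70) and Il1a at -0.37 (-0.44 to -0.29). Above the control were Il1r1 at 0.52 (0.16 to 0.91) and Il18 at 0.46 (0.28 to 0.64), while Il33 at 0.15 (-0.77 to 1.14) was not distinguishable from it. The median was -0.72, against 0.02 over all genes. In FR17, 3.58% of all genes were called lower and 3.92% higher, beside 1 and 0 of the 10 members. Among the 3591 genes with at least 1000 counts in either library, which include 7 of the members, 0.975% were called lower, and the value of Il1rap was below all but 1.11% of the 16369 genes.

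**Figure D2:**
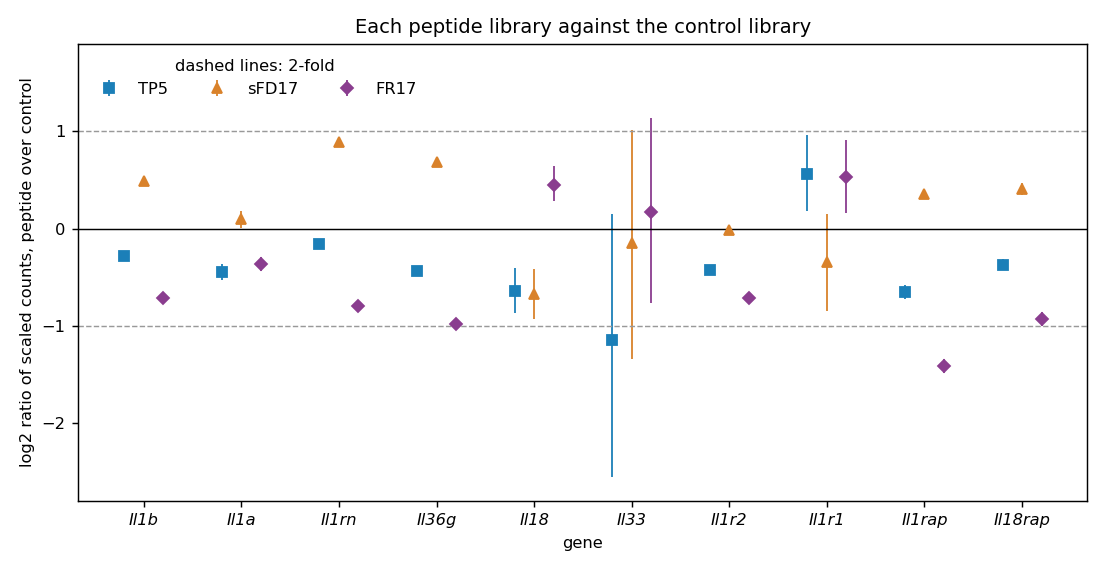
Log2 ratio of scaled counts, each peptide library over the control library (y axis), for the 10 genes (x axis), with 95% counting intervals and dashed lines at 2-fold. FR17 lies lowest for Il1b, Il1rn, Il36g, Il1r2, Il1rap and Il18rap, Il1rap reaches -1.41, and for Il18 FR17 lies above the control at 0.46; the ratios hold no prior count, so the Il33 point of TP5, from 8 and 17 counts, sits lower than its log2 fold change of -0.98.

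The peptides were then compared with each other in 3 pairs at the same dose and time. FR17 against sFD17, which differ in whether the TP5 residues stand in order or scrambled, gave the widest differences. In FR17, 5 genes were at least 2-fold lower: Il1rap at -1.77 (-1.84 to -1.70), Il1rn at -1.68 (-1.72 to -1.65), Il36g at -1.66 (-1.72 to -1.61), Il18rap at -1.34 (-1.41 to -1.28) and Il1b at -1.21 (-1.22 to -1.20). In terms of fold, Il1rn was 3.21-fold and Il1rap 3.41-fold lower in FR17 than in sFD17. Il18 was the only gene at least 2-fold higher, at 1.13 (0.90 to 1.37), with 725 counts against 190. Il1r1 was at 0.86 (0.44 to 1.34), Il1r2 at -0.70 (-0.73 to -0.68) and Il33 at 0.29 (-0.72 to 1.44). Il1a was at -0.46 (-0.55 to -0.38) and came to -0.00 by library size alone. The members' median was -0.96, against 0.07 over all genes. Differences of this size were common between these libraries: 10.8% of all genes were called lower in FR17 and 11.3% higher, and among the 3644 genes with at least 1000 counts in either library 14% were called lower, beside 5 of 7 members. By library size alone, 3 genes were called lower, Il1rap, Il1rn and Il36g, and 2 higher, Il18 and Il1r1.

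FR17 against TP5 gave smaller differences. Il18 was higher in FR17 by 1.09 (0.89 to 1.31), and Il33 by 1.13 from only 26 and 8 counts (0.13 to 2.67). These 2 of 10 members stood beside 7.04% of all genes called higher, and 0 members beside 2.88% called lower. Short of 2-fold, 6 members had values below 0 with intervals that did not reach 0: Il1rap was at -0.77 (-0.84 to -0.69), Il1rn at -0.64 (-0.68 to -0.61), Il18rap at -0.56 (-0.63 to -0.49), Il36g at -0.54 (-0.59 to -0.48), Il1b at -0.44 (-0.45 to -0.43) and Il1r2 at -0.29 (-0.32 to -0.27). Il1a at 0.08 (-0.01 to 0.16) and Il1r1 at -0.03 (-0.36 to 0.30) were not distinguishable between FR17 and TP5 at this depth, and the sign for Il1r1 turned with another scaling, to 0.16 by library size alone.

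sFD17 against TP5 separated the members in the other direction. Il36g at 1.13 (1.08 to 1.18), Il1rn at 1.04 (1.01 to 1.07) and Il1rap at 1.00 (0.94 to 1.07) were called higher in sFD17, 3 of 10 members beside 6.74% of all genes, and 0 members were called lower beside 5.64%. Il18rap at 0.78, Il1b at 0.77, Il1a at 0.54 and Il1r2 at 0.41 were also above TP5, while Il1r1 was at -0.89 (-1.39 to -0.45). Il18 at -0.04 (-0.31 to 0.24) was not distinguishable between sFD17 and TP5, and turned to 0.01 with the size factors of DESeq2. Without a count minimum Il1rap came to 0.97, short of 2-fold. With library size alone none of the 3 genes reached 2-fold, and Il1r1 was the gene called lower.

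The windows around the start sites of the 5 genes at least 2-fold lower in FR17 than in sFD17 are shown because these genes also kept the same order of libraries, sFD17, control, TP5, FR17. The sequences are from RefSeq on GRCm38.p6, run from 250 bases before to 50 bases after a start site, and are written 5′ to 3′ on the strand of the gene. Capitals mark matches to 4 motifs searched on both strands: a kappa B core GGNNNTTCC, a C/EBP site TTGCNNAA, a gamma-activated site TTCNNNGAA and the core of an interferon-stimulated element GAAANNGAA. The window of Il1b (chr2:129371090-129371389, minus strand) held none of them. The window of Il1rn is that of the start site farthest downstream of 3 (chr2:24345121-24345420, plus strand), with a kappa B core 50 bases before the start, and the window of Il18rap (chr1:40515112-40515411, plus strand) held one 19 bases before it, where the motif matches on both strands. Il1rap (chr16:26581455-26581754, plus strand) held an interferon-stimulated core 20 bases after the start, and Il36g (chr2:24186226-24186525, plus strand) a gamma-activated site 128 bases before it.
Il1b: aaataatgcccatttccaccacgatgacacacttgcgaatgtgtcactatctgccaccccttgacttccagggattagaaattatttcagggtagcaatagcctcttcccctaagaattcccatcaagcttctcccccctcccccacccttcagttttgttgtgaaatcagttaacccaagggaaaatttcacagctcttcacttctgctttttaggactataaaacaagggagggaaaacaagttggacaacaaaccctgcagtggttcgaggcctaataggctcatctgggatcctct
Il1rn: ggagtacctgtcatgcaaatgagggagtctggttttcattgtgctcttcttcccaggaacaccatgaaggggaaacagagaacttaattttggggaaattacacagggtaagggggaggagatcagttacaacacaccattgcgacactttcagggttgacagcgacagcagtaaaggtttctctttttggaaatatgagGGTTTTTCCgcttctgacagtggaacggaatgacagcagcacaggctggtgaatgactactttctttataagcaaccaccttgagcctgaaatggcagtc
Il1rap: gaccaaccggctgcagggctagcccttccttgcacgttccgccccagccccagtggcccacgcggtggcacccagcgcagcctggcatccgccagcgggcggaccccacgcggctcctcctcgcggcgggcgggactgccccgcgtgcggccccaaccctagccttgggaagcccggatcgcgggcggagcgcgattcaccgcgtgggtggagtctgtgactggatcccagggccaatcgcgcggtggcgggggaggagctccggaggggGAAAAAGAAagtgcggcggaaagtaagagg
Il18rap: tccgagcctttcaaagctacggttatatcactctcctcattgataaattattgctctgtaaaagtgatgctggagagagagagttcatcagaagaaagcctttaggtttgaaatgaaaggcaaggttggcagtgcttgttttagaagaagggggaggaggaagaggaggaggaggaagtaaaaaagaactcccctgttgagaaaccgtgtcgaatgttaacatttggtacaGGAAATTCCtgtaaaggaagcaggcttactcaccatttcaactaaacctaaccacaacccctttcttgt
Il36g: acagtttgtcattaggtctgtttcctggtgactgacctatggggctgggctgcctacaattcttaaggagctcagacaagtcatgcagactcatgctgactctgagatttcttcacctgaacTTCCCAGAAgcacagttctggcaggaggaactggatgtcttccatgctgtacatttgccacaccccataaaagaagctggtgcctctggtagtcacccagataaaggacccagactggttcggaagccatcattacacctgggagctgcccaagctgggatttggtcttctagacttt

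The matches are descriptions of letters and not of binding. Of 32851 windows of 300 bases, 18.5% held the kappa B core, 10.8% the C/EBP site, 8.30% the gamma-activated site and 8.56% the interferon-stimulated core. Over the 14 windows of the 10 genes, 6 held the kappa B core, among them 2 windows of Il1rn that share a match, and 2, 2 and 1 held the others. In the window of Il1r2 a kappa B core 106 bases before the start overlaps a gamma-activated site.

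Ratios of 2 transcripts within a library do not depend on the scaling between libraries, and 6 of them, chosen after the values were seen, are given per base of gene length. The antagonist Il1rn stood at 3.00% of Il1b in the control, 2.84% in FR17, 3.95% in sFD17 and 3.28% in TP5. Per base, Il1b was in 25.3-fold to 35.2-fold excess over Il1rn, the least in sFD17 and the most in FR17. Gene length was 1907 bases for Il1b and 5535 for Il1rn, and the control held 156498 and 13638 counts of them. Against Il1a, a ratio outside these 6, Il1rn was at 1.93 in the control, 1.43 in FR17, 3.33 in sFD17 and 2.36 in TP5. The ratio of Il1a to Il1b was 0.0156 in the control, 0.0199 in FR17, 0.0119 in sFD17 and 0.0139 in TP5. FR17 had the most Il1a for its Il1b and sFD17 the least.

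The decoy far exceeded the signalling receptor in all libraries. The ratio of Il1r2 to Il1r1 was 1520 in the control (1240 to 1890), 639 in FR17 (551 to 744), 1910 in sFD17 (1470 to 2530) and 766 in TP5 (648 to 910). TP5 and FR17 lay below the control and sFD17 with no overlap of the intervals. The accessory chain Il1rap was at 0.0189 of Il1r2 in the control, 0.0116 in FR17, 0.0244 in sFD17 and 0.0161 in TP5. Il18rap exceeded its partner Il18r1 by 11.1-fold in the control, 5.49-fold in FR17, 9.90-fold in sFD17 and 8.77-fold in TP5. In FR17, Il18r1, given as the partner of Il18rap, was at a log2 fold change of 0.09 against the control and Il18rap at -0.93. Il18bp, the secreted protein that neutralises interleukin 18, had 303 counts in the control, 318 in FR17, 805 in sFD17 and 252 in TP5. Its ratio to Il18 was 0.266 in the control (0.228 to 0.310), 0.149 in FR17 (0.131 to 0.171), 1.44 in sFD17 (1.23 to 1.70) and 0.332 in TP5 (0.278 to 0.396), so that only in the sFD17 library did Il18bp exceed Il18.

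**Figure D3:**
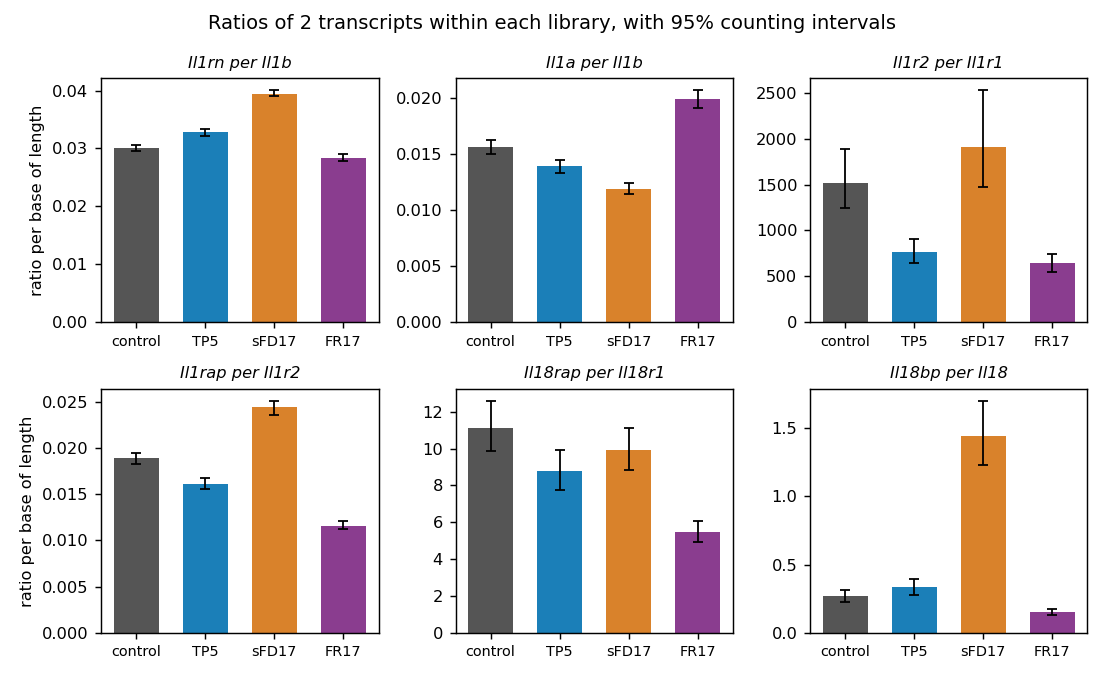
Ratio of 2 transcripts per base of gene length within each library (y axis of each panel, linear from 0) for the control, TP5, sFD17 and FR17 libraries, with 95% counting intervals. The ratio of Il1rn to Il1b lies between 0.0284 and 0.0395, that of Il1r2 to Il1r1 between 639 and 1910, and that of Il18bp to Il18 is highest in sFD17, at 1.44.

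Around the family, 6 of 11 other ligands and receptors passed the count minimum. Il18bp was called higher in sFD17, at 1.76 (1.57 to 1.96), and Il36a was the other of 2 calls there, from 1 and 11 counts. Il36a passed the count minimum only through sFD17, the library where it was called. Its place among the 6 and its call thus rest on the same 11 counts. These 2 of 6 genes stood beside 5.32% of all genes called higher in sFD17. In TP5 and FR17, 0 of 6 were called in either direction against the control, beside 3.20% and 3.92% of all genes higher and 4.99% and 3.58% lower. Il1rl1, the interleukin 33 receptor, and Il1rl2, the interleukin 36 receptor, were not called and are given as the receptors of 2 members. Il1rl1 had 415 counts in the control, 703 in FR17, 355 in sFD17 and 774 in TP5, and Il1rl2 had 303, 452, 134 and 343 in the same order.

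The 20 genes that carry the signal from the receptors, such as Myd88, the Irak kinases and NF-κB subunits, held no call against the control in any peptide library, where 3.20% to 5.32% of all genes were called higher and 3.58% to 6.47% lower. Their median was -0.29 in FR17, 0.24 in sFD17 and -0.03 in TP5. With sFD17, 18 of the 20 were above the control, and with FR17 18 of the 20 were below it. By library size alone these became 11 above and 9 below in sFD17, and 7 above and 13 below in FR17. The medians with that scaling were 0.02 in sFD17 and -0.05 in FR17. In FR17 against sFD17, 3 of 20 genes were called lower, beside 10.8% of all genes, and were named after their values were seen: Irak3 at -1.52, Irak2 at -1.22 and the adaptor Myd88 at -1.06. By library size alone 1 gene was called lower there.

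Among 20 genes of cytokine processing and release, the inflammasome sensor Nlrp3 had 33262 counts in the control, 23900 in FR17, 52234 in sFD17 and 36529 in TP5. It was called higher in sFD17, at 1.01 (0.99 to 1.03), and was at -0.92 in FR17. Casp1, the protease that cuts interleukin 1β and interleukin 18, was not called and is given for this role; it was at 0.09 in FR17, 0.44 in sFD17 and -0.17 in TP5. Elane, a neutrophil protease that can also cut interleukin 1 precursors, was called higher in TP5 at 1.28 (0.75 to 1.93) and in sFD17 at 1.07 (0.48 to 1.76), from 35, 91, 59 and 91 counts in the control, TP5, sFD17 and FR17 libraries. The calls were 1 of 20 higher in TP5, 2 of 20 in sFD17 and 0 in FR17, beside 3.20%, 5.32% and 3.92% of all genes. No gene of this list was called lower in any peptide library against the control, beside 3.58% of all genes in FR17, 6.47% in sFD17 and 4.99% in TP5, and the median was 0.11 in FR17, 0.19 in sFD17 and -0.06 in TP5. By library size alone, sFD17 had 0 called higher and 1 called lower, and the median in sFD17 turned to -0.02, while FR17 had 1 called higher and a median of 0.36.

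Of 30 genes known to respond to interleukin 1, 28 passed the count minimum. With TP5, 3 of 28 were called lower and 0 higher, beside 4.99% and 3.20% of all genes. They were Saa3, an acute-phase protein, with 2053 counts in the control and 652 in TP5 (-1.71), the adhesion molecule Vcam1 with 1054 and 525 (-1.06), and Csf2, named after its values were seen, with 24 and 11. With sFD17, 4 of 28 were called higher, beside 5.32% of all genes, Icam1 at 1.59 (1.54 to 1.64), Csf3 at 1.47 (1.28 to 1.66) and, named after their values were seen, Tnf at 1.09 and Sod2 at 1.09. In the same library 3 were called lower, beside 6.47% of all genes, Vcam1 at -1.88 (-2.10 to -1.67), Ccl2 at -1.58 (-1.80 to -1.38) and, also named afterwards, Il6 at -1.20. With FR17, 22 of 28 were below the control and 2 were called lower, beside 3.58% of all genes, the neutrophil chemokines Cxcl3 at -1.11 (-1.21 to -1.01) and Cxcl2 at -1.03 (-1.04 to -1.02). Cxcl2 had 152311 counts in the control and 101222 in FR17. The medians of the list were -0.47 in FR17, 0.49 in sFD17 and -0.12 in TP5, or -0.22, 0.27 and -0.07 by library size alone. In FR17 against sFD17, 14 of the 28 were called lower and 4 higher, beside 10.8% and 11.3% of all genes, and by library size alone 3 lower and 5 higher. Against the control, library size alone gave 2 higher and 4 lower in sFD17 and 2 higher and 0 lower in FR17.

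**Figure D4:**
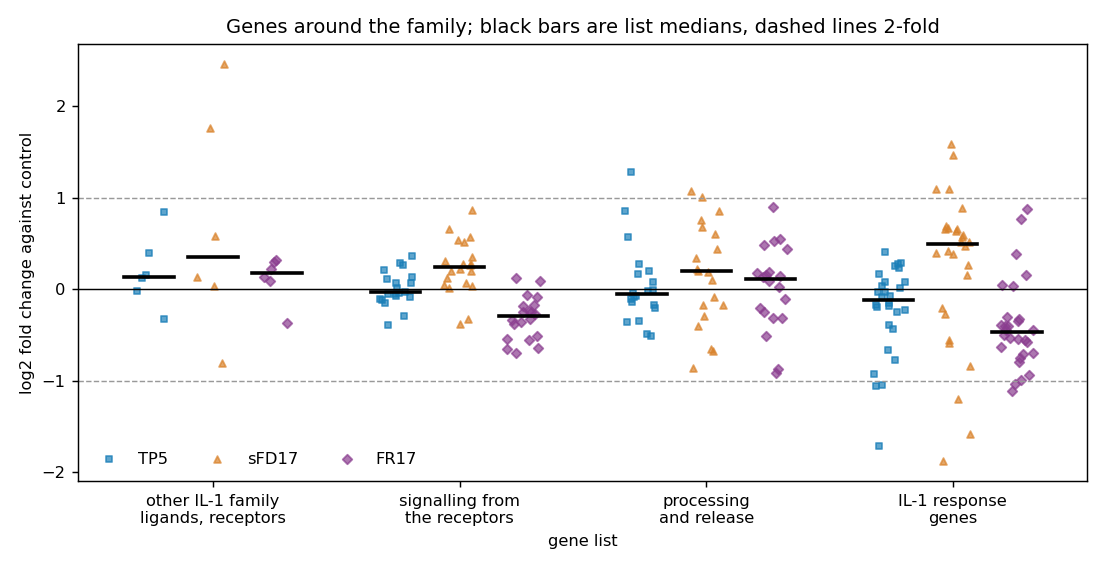
Log2 fold change against the control (y axis) of each tested gene in 4 lists (x axis) for TP5, sFD17 and FR17, 1 point per gene, with black bars at list medians and dashed lines at 2-fold. The response genes have medians of -0.12, 0.49 and -0.47 in TP5, sFD17 and FR17, and the receptor signalling genes stay inside the 2-fold lines.

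Transcripts that mark other cells, and those that mark neutrophils, differed between the libraries as well. The summed CPM of 18 neutrophil markers, led by S100a9, S100a8 and Csf3r, was 1.34 times the control in sFD17, 1.08 times in TP5 and 0.868 times in FR17. All 18 were above the control in sFD17, or 16 by library size alone. In FR17, 7 were above and 11 below, or 11 above and 7 below by library size alone. Their unscaled share was 3.81% of the FR17 library and 3.71% of the control, so without scaling the FR17 sum lay above the control. The neutrophil markers differed among themselves in FR17: Csf3r at -1.04 and Mxd1 at -1.03 were called lower, 2 of 18 beside 3.58% of all genes, and Cxcr2 was at -0.88, while the granule genes Camp at 0.53, Ltf at 0.44 and Ngp at 0.31 were above the control. Of these, all but Csf3r were named after their values were seen. Both calls were lost, with 0 of 18 called lower, by library size alone, with upper-quartile factors and with totals without the 10 most abundant genes. The 16 macrophage and monocyte markers, led by Apoe, Chil3 and Csf1r, were at 0.784 times the control in TP5. They were at 0.454 times in sFD17, where 15 were below it, and 1.22 times in FR17, where 14 were above it. The 15 in sFD17 differed among themselves: Mrc1 was at -2.06 and C1qa at -1.75, but Ccr2 at -0.27 and Csf1r at -0.07. Ly6c2, a monocyte marker, was the 1 above the control, at 1.42. Mrc1, C1qa, Ccr2 and Ly6c2 were named after their values were seen. The 15 T and NK cell markers were led by Cd4, Gzma and Klrk1. They were at 0.785, 0.781 and 2.25 times the control in TP5, sFD17 and FR17, with all 15 above it in FR17. In TP5 and in sFD17, 7 were above it and 8 below, with median log2 fold changes of -0.11 and -0.07. None of these markers was at 0 in any library. The part of these cells in the results was not tested.

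Levels were also set per count of the neutrophil markers. Relative to the control, FR17 had 0.432 times as much Il1rap, 0.586 times as much Il36g, 0.605 times as much Il18rap, 0.662 times as much Il1rn, 0.700 times as much Il1b and 0.701 times as much Il1r2. All of these genes were below the control on this scale too, a scale that sums markers lying both above and below the control in FR17. In sFD17 the same measure was 1.38 for Il1rn and 1.20 for Il36g, but 1.05 for Il1b, 0.993 for Il18rap and 0.954 for Il1rap. Il1a, the sixth gene above the control in sFD17 by CPM, was at 0.797. Of these 6 genes, Il1a, Il1rap and Il18rap were below the control on this scale. In TP5 it was 0.591 for Il1rap, 0.764 for Il1b and 0.833 for Il1rn.

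Il18 was set per count of the neutrophil markers and of the macrophage and monocyte markers, and no other marker list was used as a scale. Per 1000 counts of macrophage and monocyte markers, Il18 had 2.09 counts in the control, 2.36 in FR17, 2.88 in sFD17 and 1.71 in TP5, and per 1000 counts of neutrophil markers 0.611, 0.968, 0.285 and 0.364. Relative to the control, the macrophage scale gave 1.13 in FR17, 1.38 in sFD17 and 0.820 in TP5. The neutrophil scale gave 1.58, 0.467 and 0.596 in that order. In sFD17 the macrophage scale sums markers that lay far below, near and above the control.

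**Figure D5:**
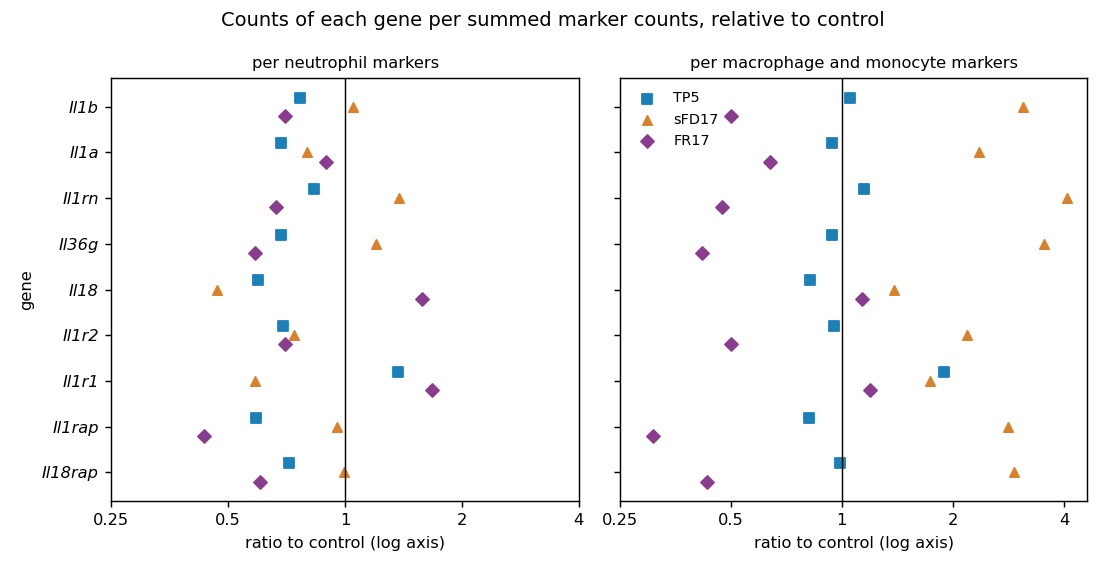
Counts of each gene per summed counts of 18 neutrophil markers (left) or 16 macrophage and monocyte markers (right), as a ratio to the control library (x axis, log scale), for TP5, sFD17 and FR17; Il33 is left out for its low counts. On the neutrophil scale Il1b in FR17 lies at 0.700 and Il1rap at 0.432, and on the macrophage scale Il18 lies at 0.820, 1.38 and 1.13.

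For nearest patterns, 6 members qualified, with at least 50 counts in every library and a range of at least 1 on the log2 scale. For each, the genes with the most similar pattern over the 4 libraries were sought among 9799 genes. Likeness was the root mean square difference of centred log2 CPM. Il1b was nearest to Ptpn23 at 0.0117, 1700058P15Rik at 0.0137 and Cmtr1 at 0.0141. Il1rn was nearest to Snai1 at 0.0222, Ago2 at 0.0299 and Rasip1 at 0.0299. Such likeness is common with 4 points: 189 genes lay within 0.1 of Il1b and 45 within 0.1 of Il1rn. Il18rap was nearest to Lamb3, Zfp871 and Adam8, and Il36g to Gm42658, Mxd1, which is among the 18 neutrophil markers, and Hdc, the histidine decarboxylase gene. Il1rap had only 7 genes within 0.1, led by Gm34643, Gm37689 and Spatc1. Il18 had 12, led by Nbl1, Mgp, which encodes matrix Gla protein, and Gm9824.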

How the data were processed

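CD11b+Ly6g+ MDSCs were sorted from digested lungs, and the mRNA of each group was sequenced as 1 library, made with a strand-keeping kit (NEBNext Ultra Directional). What the authors deposited are unnormalized read counts for each gene. The submitters' processing notes name HISAT2 2.0.5, StringTie 1.3.3b, featureCounts 1.5.0-p3, edgeR 3.18.1 and GRCm38.p6, without their roles, and the strand setting of the counting is not given in the sources used here. GENCODE M21 holds 54495 of the gene identifiers, 53585 with the same coordinates, and all 10 members are among the latter. Il36g was matched through its RefSeq synonym Il1f9.

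Counts were analysed with edgeR 4.0.16 and DESeq2 1.42.0 in R 4.3.3 and with Python 3.11.15, pandas 2.3.3, numpy 2.4.6, matplotlib 3.10.9 and scipy 1.17.1. A gene was tested if any library held 10 counts or more of it, which 16369 did, and was compared as TMM-scaled log2 CPM, to which a prior count of 2 was added. With 1 library per group no test was run, a gene was called at 2-fold, and 95% intervals are exact Poisson for a level and Clopper-Pearson for a ratio of counts, both without the prior count. A count of 0 was bounded at 3 counts per library. In 6 comparisons the members were described beside all genes tested. The scaling and calling steps were tested on simulated counts with counting error alone and few changed genes. That setting does not reach comparisons with many changed genes, such as FR17 against sFD17.

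The members and the 14 gene lists were chosen with earlier results of these data known. Genes outside the members were named by a rule: in each of 4 pathway lists, the 2 called genes farthest above and the 2 farthest below the control, given 50 counts or more in either library; in 10 marker lists the summed level and the 3 most abundant genes; and for members with at least 50 counts in every library and a range of at least 1, the 3 nearest genes. Genes named outside this rule are marked as such or given as the sort markers, as other ligands or receptors of the family, as a processing enzyme, as genes overlapping a member or as a marker at 0 counts. Tried as alternatives were upper-quartile factors, scaling by library size alone or by DESeq2's size factors, a minimum of 10 counts in all libraries, no count minimum, a prior count of 0.5, totals without the 10 most abundant genes and a fold of 1.5.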

Additional observations from a re-analysis of the deposited data

How the results depend on the processing

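No paired analysis was possible because each group is 1 library, and for the same reason no library could be left out of a group. The called counts of members depended mostly on the scaling of sFD17 and FR17 and on the fold. With library size alone, and with totals without the 10 most abundant genes, FR17 against sFD17 had 2 members higher and 3 lower, and sFD17 against TP5 had 0 higher and 1 lower. Library size alone moved the median over all genes to -0.23 in sFD17, 0.26 in FR17 and 0.05 in TP5 against the control, and to 0.52 in FR17 against sFD17; relative to that median the members of FR17 against the control were at -0.73, beside -0.74 with TMM factors. At a fold of 1.5, 3 members were lower in TP5 against the control, 2 higher and 1 lower in sFD17, 6 lower in FR17, 2 higher and 6 lower in FR17 against sFD17, 2 higher and 2 lower in FR17 against TP5, and 6 higher and 1 lower in sFD17 against TP5. A prior count of 0.5 gave 1 member lower in TP5 against the control. With at least 10 counts in every library Il33 was not tested and FR17 against TP5 had 1 member higher. Of the 60 log2 fold changes of members, 4 changed sign under some alternative, 2 of 30 against the control (Il1a and Il1r2 in sFD17) and 2 of 30 between peptides (Il18 in sFD17 against TP5, at 0.01 by DESeq2's size factors, and Il1r1 in FR17 against TP5). The call of Il1rap in FR17 against the control held under all 8 alternatives, of which the fold of 1.5 could not have undone it. Chosen after seeing the data, neutrophil markers without S100a9 and S100a8 put Il1rap in FR17 at 0.437 of the control, and macrophage markers without Apoe and Chil3 put Il18 at 0.864, 1.13 and 1.23 in TP5, sFD17 and FR17. Depth limits Il33 and Il1r1, and without replicates none of the differences can be set against the variation between mice.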

Other observations

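The other marker lists were as follows, each sum given for TP5, sFD17 and FR17 as a multiple of the control. Dendritic cell markers summed to 1.71, 1.04 and 1.36, with 7, 5 and 7 of 8 above the control. B cell markers summed to 1.39, 1.11 and 1.19, with 6, 6 and 7 of 7 above it. Without scaling, both lay below the control in sFD17. Their shares of that library and of the control were 0.0166% and 0.0185% for dendritic cells, and 0.0351% and 0.0367% for B cells. Endothelial markers summed to 0.778, 1.07 and 1.3, with 1, 4 and 8 of 8 above the control. Their unscaled share was 0.0143% of the sFD17 library and 0.0155% of the control. Fibroblast and smooth muscle markers summed to 0.611, 0.899 and 1.05, with 0, 3 and 6 of 11 above the control. By library size alone 10 of these 11 were above it in FR17. Epithelial markers summed to 1.47, 2.00 and 1.18, with 6, 6 and 7 of 10 markers above the control and Scgb1a1 the most abundant. In 2 lists the sum and the number of markers above the control differed in direction in some libraries. Platelet markers summed to 0.426, 0.270 and 1.31, led by Pf4 with 1733 counts in the control, 2954 in FR17, 247 in sFD17 and 653 in TP5, while 4, 4 and 5 of the 5 markers with a count were above the control, and Gp1bb had 0 counts in every library. The platelet list held 1886 counts in the control, so its sum mostly follows Pf4. Markers of innate lymphoid 2 cells, mast cells and basophils summed to 0.755, 1.56 and 0.549, led by Hdc, while 9, 9 and 11 of 13 were above the control. Hdc held 61509 of the 62373 counts of this list in the control, so its sum mostly follows Hdc. Of the 12 markers of this list that passed the count minimum, 3, 4 and 5 were called higher, beside 3.20%, 5.32% and 3.92% of all genes. Among those in FR17 were Prss34, with 18 counts in the control and 209 in FR17, and Mcpt8, with 18 and 105. Single T and NK cell genes in FR17 included Gzma, a granule protease, with 247 counts in the control and 1090 in FR17, and Prf1, the pore protein of cytotoxic cells, with 62 and 352. Prss34, Mcpt8 and Prf1 were named after their values were seen.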
